A study of Mus musculus with 1119 samples.

Results

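Hair germ cells that were still labelled as germ at postnatal day 25 to 27 (P25-P27) were set against resting bulge cells at P21. The question was whether these late germ cells shared the expression programme of the bulge. The members were the cells of plates 913hg and 914hg (16 cells, 14 and 2 by plate) and of plate 819b (39 cells). Every one of them had at least 2000 genes at a level of 1 TPM or more (transcripts scaled to a fixed total per cell), so all 55 were kept, of 398 cells in the same table and 1119 in the series.

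The series profiled single cells of mouse back skin by Smart-seq2, a full-length RNA method, over the passage from rest to hair growth. All mice were of the strain Lgr5-eGFPiresCreER;R26-tdTomato, which carries a green reporter and an inducible recombinase at Lgr5 and a red reporter at Rosa26, and the sexes were mixed. Cells were sorted with GFP, tdTomato, integrin α6, integrin b1, CD34 and Pcadherin, and the gate set for each group is not given in the sources used here. The authors' annotation called the 39 cells telogen bulge stem cells and the 16 cells Ana1 hair germ cells, the name it also gave to the germ at P23-P24. The other groups used here were the germ at P21 (68 of 71 cells kept, telogen hair germ cells), the germ at P23-P24 (68 of 73) and matrix cells at P25-P27 (all but 3 kept, Ana2 matrix cells).

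No animal was named, each group is therefore a single sample here, and no test across samples could be made. All 39 bulge cells came from 1 plate and 14 of the 16 late germ cells from another, so that age, sort and plate cannot be told apart. TPM keeps no read depth, which is therefore unknown. Genes that reached 1 TPM numbered 3591 to 9353 (median 5572) in bulge cells and 4702 to 5718 (median 5367.5) in late germ cells. Spike-in RNA took a median 14.4% of TPM in bulge cells and 8.53% in late germ cells, and ribosomal RNA rows took 53.4% and 62.1%. The part of these shares in the differences was not tested.

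The bulge is the niche of the follicle's slow-cycling stem cells, and the hair germ is the small cluster of cells below it that lies next to the dermal papilla. At the start of hair growth the germ is activated first, by WNT and FGF signals and by inhibitors of BMP, and it gives rise to the matrix, while bulge cells stay quiet for longer. Krt15, Cd34, Sox9, Lhx2 and Nfatc1 are widely used marks of the bulge.

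The bulge keratin Krt15 (chr11:100131758-100135928, minus strand, GRCm38) had in bulge cells a lowest, median and highest TPM of 1196, 3971 and 8449. In late germ cells the same values were 462, 2995 and 6589. The ranges overlapped, with 1 late germ cell below every bulge cell and 4 above the bulge median. The difference of mean log2(TPM + 1), late germ minus bulge, was -0.50, while late germ minus P23-P24 germ was 1.73. All differences below are on this scale, which understates the change of genes at low levels.

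Postn (chr3:54361109-54391037, plus strand), which encodes the matrix protein periostin, ran from 33.2 to 1099 in the bulge with a median of 299.1. In the late germ it ran from 0 to 552 with a median of 168.4, and 15 of 16 cells had a TPM of 1 or more. In the germ at P23-P24 its median was 8.55, and 37 of 68 cells had it. Late germ cells thus sat mostly inside the bulge range, and 2 lay below every bulge cell. The difference was -1.25 from the bulge and 3.57 from the P23-P24 germ.

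Sfrp1 (chr8:23411502-23449632, plus strand), a secreted WNT inhibitor, had a median of 30.04 in the bulge (0 to 161.1) and of 14.8 in the late germ (0 to 47.9). It was present in 15 of 16 late germ cells (93.8%, exact binomial interval 69.8 to 99.8) and in 39 of 68 P23-P24 germ cells (57.4%, 44.8 to 69.3). Such intervals cover the counting of cells only. All 15 lay inside the bulge range, but 13 bulge cells were above the highest late germ cell. The difference was -0.66 from the bulge and 2.14 from the P23-P24 germ.

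Cd34 (chr1:194938819-194961279, plus strand), a sialomucin of the bulge surface and 1 of the proteins used in the sort, was far lower in late germ cells. Its median was 324.15 in the bulge (24.6 to 787) and 11.1 in the late germ (0 to 130). In 13 of 16 late germ cells it was below the lowest bulge cell, and 35 of 39 bulge cells lay above the highest late germ cell. The difference was -5.23, but the sort used this protein, so the value is no finding between the groups. Of the other sort genes, Cdh3, which encodes P-cadherin, was present in 16 of 16 late germ and 32 of 39 bulge cells (-0.14), and the R-spondin receptor gene Lgr5 in 15 of 16 and 36 of 39 (-1.27). At least 1 TPM of Krt15, Postn and Sfrp1 together was found in 14 of 16 late germ cells. All 4 markers were found in 9 of 16, against 36 of 39 bulge cells, 15 of 68 P21 germ cells, 15 of 68 P23-P24 germ cells and 13.3% of matrix cells.

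**Figure D1:**
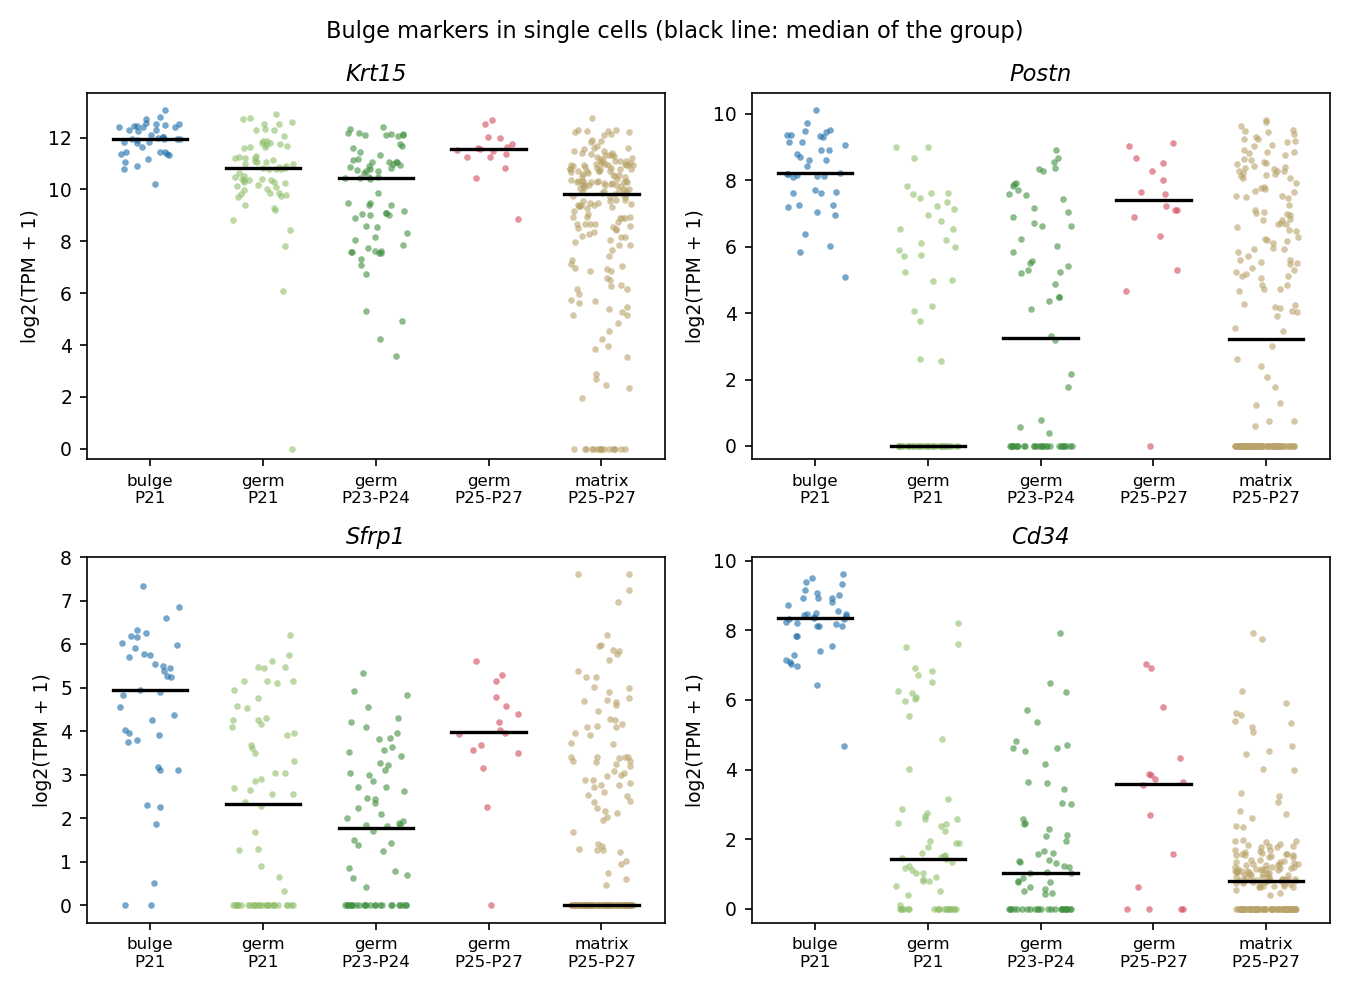
Each point is 1 cell, the y axes give log2(TPM + 1) of 4 bulge markers and black lines are group medians, for the bulge at P21 (39 cells), the germ at P21 (68), P23-P24 (68) and P25-P27 (16) and the matrix at P25-P27. Late germ medians of Krt15, Postn and Sfrp1 lie between those of the P23-P24 germ and the bulge, and 13 late germ cells lie under all bulge cells for Cd34.

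3 cells stood apart from their groups. Late germ cells 913hg_B3 and 913hg_D2 had the highest levels of the bulge programme defined below, and Cd34 at 129.9 and 119.3 TPM. Bulge cell 819b_B5 had the most genes of its group (9353) and a germ programme far above the other bulge cells. Counts that lead the results are given with and without them.

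To measure the bulge programme without reusing cells, the 50 genes that parted bulge from germ most at P21 (2.54 to 6.14) were taken, sort genes left out, and their levels were compared between the late germ and the P23-P24 germ. In the late germ 28 of these 50 genes (56%) were higher by 1 or more and 3 were lower by as much. Among all 9528 genes measured in that comparison, 2.73% were higher and 22.1% lower by 1 or more. The median of the 50 was 1.43 and that of all genes was -0.45. P23-P24 germ cells had more genes at 1 TPM (median 6984 against 5367.5), and the part of that in the difference was not tested. Against the matrix of the same age the median was 1.02, with 25 genes higher by 1 or more (7.46% of all 8469) and 3 lower (5.81%).

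Against the bulge itself, whose cells helped to choose the list, 46 of the 50 were lower in the late germ by 1 or more (14.6% of all 8578 genes measured), 4 were within 1, and the median was -2.21. The typical level of these genes in the late germ thus lay between those of the earlier germ and the bulge, which is high in them by choice. Without the 2 late germ cells that stood apart, 27 genes were higher by 1 or more than in the P23-P24 germ, with a median of 1.23. Without the bulge cell, 29 were, with a median of 1.49. Taken as a log2 ratio of mean TPM, which is led by the highest cells, the median was 0.42 and 15 genes passed 1. With a pseudocount of 10 it was 0.79 and with 100 genes in the list 0.72. Among the 68 germ cells of P23-P24, 6 were nearest to the bulge profile, and 1 reached a programme level of 6.02.

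The mean log2(TPM + 1) over the 50 genes gave each cell a bulge programme score. It was 2.42 in the lowest, 3.07 in the median and 5.02 in the highest late germ cell. In the bulge these values were 3.61, 5.86 and 6.76, and in the P23-P24 germ 0.32, 1.87 and 6.02. In the P21 germ they were 0.45, 1.88 and 6.23, and in the matrix 0.24, 2.07 and 5.04. Single cells of each other group thus passed the highest late germ cell. Each of the 16 late germ cells was above the median germ cell of P21 (1.88) and of P23-P24. The P21 germ cells helped to choose the list and are low in it by that choice, while those of P23-P24 had no part in it. The middle range of late germ cells ran from a lower quartile of 2.87 to an upper quartile of 3.62, against 5.29 to 6.09 in the bulge, 1.08 to 2.70 in the P23-P24 germ and 1.16 to 3.21 in the matrix. In the bulge range lay 4 late germ cells, but only 913hg_B3 (4.79) and 913hg_D2 (5.02) passed the second lowest bulge cell (4.24), and the next was at 3.91.

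The opposite list, the 50 genes highest in P21 germ over bulge, had a median score of 3.14 in late germ cells (1.46 to 3.72), 1.19 in bulge cells (0.65 to 5.22), 4.77 in P21 germ and 3.94 in P23-P24 germ. All 16 late germ cells were above the bulge median, but the bulge cells helped to choose this list and are low in it by that choice. Relative to the P23-P24 germ, 24 of the 50 genes were lower by 1 or more and 3 higher, beside 22.1% and 2.73% of all genes. The median was -0.91 beside -0.45 for all genes. With a pseudocount of 0.1 this median was -1.91, and after rescaling without technical rows (spike-in, ribosomal and mitochondrial RNA) it was -1.36. Against the matrix it was 0.18, with 10 higher and 12 lower, beside 7.46% and 5.81% of all genes. On both lists the median late germ score lay between those of the bulge and the P23-P24 germ. The bulge is high in the first list and low in the second by the choice of genes. The late and the P23-P24 germ had no part in that choice. The cell with the highest bulge score (913hg_D2) had the lowest germ score of the group (1.46).

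**Figure D2:**
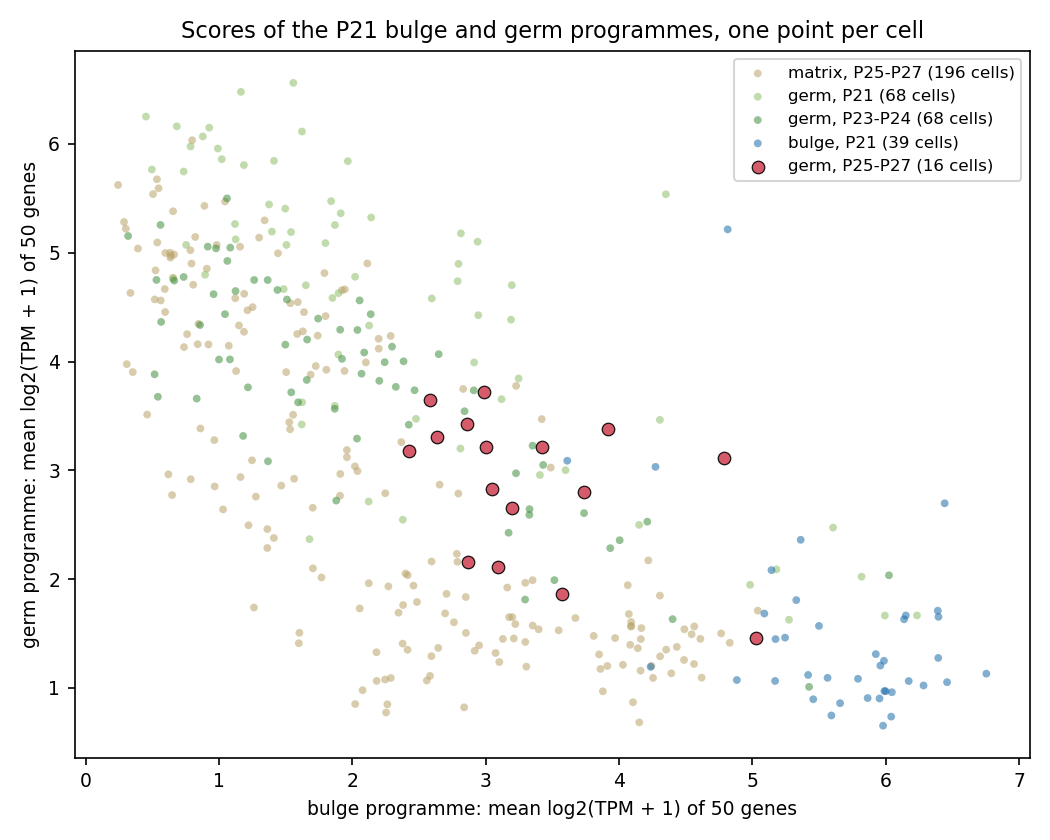
Each point is 1 cell, placed by its mean log2(TPM + 1) over the 50 genes of the P21 bulge programme (x) and of the P21 germ programme (y), with late germ cells outlined. The 16 late germ cells run from 2.42 to 5.02 on the x axis, between most other germ cells and the bulge cells, and the bulge cell at 5.22 on the y axis is 819b_B5.

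Genes common to bulge and late germ were counted from differences with no cell in common. 89 genes were higher by 2 or more in bulge than germ at P21 (0.993% of 8967), and 33 were higher by 2 or more in late than P23-P24 germ (0.346% of 9528). 20 genes were in both, 22.5% of the first list and 60.6% of the second. With the matrix as the reference, 86 genes passed (1.02% of 8469) and 22 were shared, 24.7% of the bulge list and 25.6% of the late germ list, and 16 genes were in all 3 lists. The shared count was 16 without the 2 late germ cells that stood apart and 20 without the bulge cell. It was 1 as a ratio of mean TPM, 3 with a pseudocount of 10 and 43 with a pseudocount of 0.1.

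The 12 shared genes named by the rule are given here, Postn having been described above. Dmkn, which encodes the secreted epithelial protein dermokine, had a lowest, median and highest TPM of 14.7, 239.01 and 655 in the late germ. In the bulge these were 303.6, 869 and 1863, and in the P23-P24 germ 0, 2.02 and 630. It was present in all 16 late germ cells and in 35 of 68 P23-P24 germ cells, but 10 late germ cells were below every bulge cell. Its difference was 4.48 from the P23-P24 germ and -2.07 from the bulge. Ecm1, a secreted matrix protein, differed by 3.10 and -1.61 in the same order. Tgfbi, a TGF-beta-induced matrix protein, differed by 2.68 and -1.63. Fst, which encodes the activin and BMP antagonist follistatin, differed by 2.45 and -1.63. These genes were above the earlier germ by the rule that chose them, which also took genes high in the bulge. Their late germ level was below that of the bulge.

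Anxa8, a calcium-dependent membrane-binding annexin, was present in all 16 late germ cells at 191.1 to 1141 TPM (median 348.8), against a median of 25.8 at P23-P24 and of 1039 in the bulge (323.1 to 1982). Its differences were 4.25 from the P23-P24 germ and -1.24 from the bulge, and 7 late germ cells were below every bulge cell. The water and glycerol channel Aqp3 gave 2.62 and -1.07, the focal adhesion protein Tns1 2.53 and -1.21, the non-muscle myosin heavy chain Myh14 3.06 and -1.96, and the extracellular Adamtsl4 2.21 and -1.48.

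In 2 of the 12 shared genes named, the late germ level was close to that of the bulge. Lgals3, the carbohydrate-binding protein galectin-3, ran from 43.2 to 627 TPM in the late germ (median 275.5) and from 16.2 to 1307 in the bulge (median 299.3). The late germ cells all lay inside the bulge range, 7 of them above its median, and the difference was -0.18. At P23-P24 the Lgals3 median was 31.9. Dapk2, a death-associated protein kinase, had medians of 31.2 in the late germ and 27.5 in the bulge, against 0 at P23-P24. It was present in 15 of 16, 33 of 39 and 23 of 68 cells in that order, and its difference from the bulge was 0.30.

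Of the 89 bulge genes 69 were not shared by this definition, and 18 (20.2%) were at or below the P23-P24 germ, as were 74.4% of all 9528 genes. The lowest were Igfbp7, a secreted IGF-binding protein, at -1.37, Tmem246, a transmembrane protein, at -1.34, and Rcan1, an inhibitor of calcineurin, at -1.29. Tmem246 was listed at 0 in all 16 late germ cells and was present in 26 of 39 bulge cells. Igfbp7 was present in 2 of 16 late germ cells and 32 of 39 bulge cells. Cdon, a surface co-receptor of hedgehog signalling, was present in 3 of 16 and 34 of 39, and the homeobox gene Barx2 in 7 of 16 and 37 of 39. Tmem246, Igfbp7, Cdon and Barx2 were each present in a minority of late germ cells. Txn1 and Tef, named by the same rule, differed less from the bulge (-1.31 and -0.94).

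**Figure D3:**
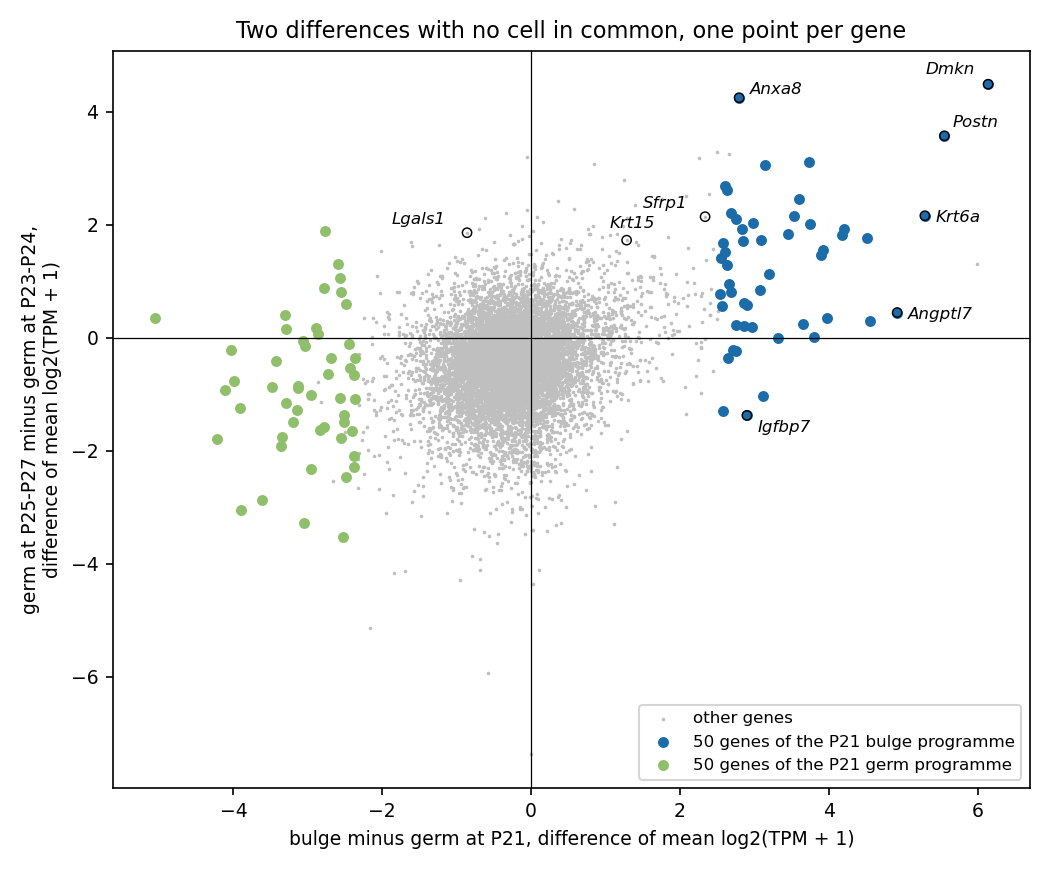
Each point is 1 gene, with bulge minus germ at P21 on the x axis and germ at P25-P27 minus germ at P23-P24 on the y axis, both as differences of mean log2(TPM + 1). Dmkn (4.48), Anxa8 (4.25) and Postn (3.57) lie high on the right, Angptl7 (0.45) lies near the zero line and Igfbp7 (-1.37) below it, while the germ programme lies mostly below zero.

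Compared directly, late germ and bulge differed by 1 or more in a minority of the 8578 genes measured. Of these genes 668 were higher in the late germ (7.79%) and 1250 higher in the bulge (14.6%), so 34.8% of those that differed were on the late germ side. The median gene was at -0.18, and after centring on it the numbers were 982 and 844, with 53.8% on the late germ side. Without the 2 late germ cells the counts were 745 and 1325, and without the bulge cell 696 and 1187. The split between the sides therefore turned with the centring.

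Among the genes higher in the late germ, Fkbp5, a co-chaperone of steroid receptors that glucocorticoid induces, had the largest difference. It had a median TPM of 55.2 in late germ cells (0 to 220.6) and of 0 in bulge cells (0 to 59.6). It was present in 15 of 16 late germ cells (93.8%, 69.8 to 99.8) and 7 of 39 bulge cells (17.9%, 7.54 to 33.5). Its mean TPM was lowest in the P21 bulge (2.64), followed by P21 germ (11.7), P23-P24 germ (28.8), matrix (36.6) and late germ (74.2). The difference was 4.81.

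Lgals1, which encodes galectin-1, had a median of 120 in late germ cells (0 to 504) and of 0 in bulge cells (0 to 574), a difference of 4.73. It was present in 15 of 16 and 12 of 39 cells. Here the late germ also lay above every other group, with means of 140.5 against 57.2 at P23-P24, 28.7 in P21 germ and 24.1 in the matrix.

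The other genes of this side covered several functions. Metabolic genes were Psat1, an enzyme of serine synthesis (3.95), Dbi, an acyl-CoA-binding protein (3.53), Ucp2, a mitochondrial carrier (3.35), Slc38a4, an amino acid transporter (3.06), Lap3, a leucine aminopeptidase (3.04), and Fdps, an enzyme of isoprenoid synthesis (3.04). The metallothionein Mt2 (3.86), the guanine nucleotide exchange factor Rasgef1b (3.80), the interferon-induced membrane protein Ifitm3 (3.46) and the chromatin remodelling subunit Smarcd2 (3.17) completed them. Smarcd2 was present in all 16 late germ cells and 30 of 39 bulge cells. The mean TPM of Ucp2, Lap3 and Slc38a4 was higher still in the P23-P24 germ (267.8, 130.6 and 74.4) than in the late germ (175.6, 68.2 and 61.5).

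On the bulge side Angptl7, a secreted angiopoietin-like protein, had the largest difference with sort genes left out (-5.16). Its median TPM was 85.4 in bulge cells (0 to 768) and 0 in late germ cells (0 to 46.2). It was present in 35 of 39 bulge cells (89.7%, 75.8 to 97.1) and 3 of 16 late germ cells (18.8%, 4.05 to 45.6). Beside it stood Wfdc3, a whey acidic protein domain gene (-4.41, 33 of 39 and 3 of 16 cells), Chat, choline acetyltransferase (-3.75), the keratins Krt24 (-3.61) and Krt80 (-3.34), the secreted ribonuclease Rnase4 (-3.55) and the lipid phosphatases Ppap2b (-3.44) and Ppap2a (-3.35). Pdzrn4, with PDZ domains, gave -3.47 and Fam83d, a spindle-associated protein, -3.36. Igfbp7 (-3.88) and Cdon (-3.68), described above, were also on this side.

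Of these bulge genes Krt24 and Krt80 were higher in the late germ than at P23-P24, by 1.77 and 1.84. Krt24 was present in 6 of 16 late germ cells and 2 of 68 P23-P24 germ cells, and Krt80 in 9 of 16 and 14 of 68. Angptl7, Wfdc3 and Chat differed from the P23-P24 germ by 0.45, 0.35 and 0.24.

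**Figure D4:**
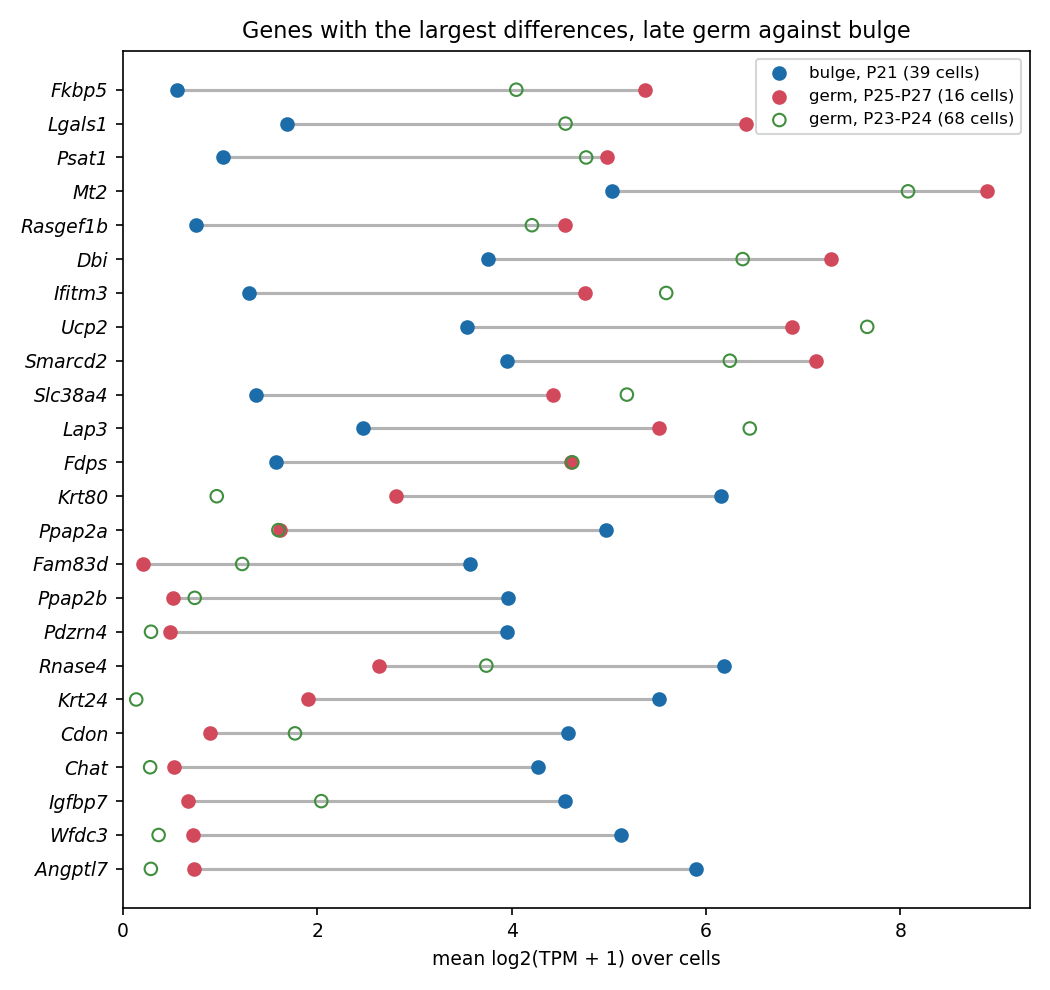
The x axis gives the mean log2(TPM + 1) over cells of the 12 genes that differed most on either side, for the bulge at P21 (blue, 39 cells), the late germ (red, 16 cells) and the germ at P23-P24 (open green, 68 cells). For most genes of both directions the P23-P24 germ lies closer to the late germ than to the bulge.

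Among 17 bulge stem cell genes, 6 were lower in the late germ than in the bulge by 1 or more and 1 was higher, with a median of -0.66 beside -0.18 for all genes. In this comparison 7.79% of all genes measured were higher and 14.6% lower by 1 or more. List counts cover every member, and of the members at 1 or beyond only Wif1 had missed the filter of 1 TPM in 30% of cells. The lower ones were Id2, a dominant-negative partner of bHLH factors (-2.96), Dkk3, a secreted Dickkopf protein (-2.54), Nfatc1, a transcription factor of stem cell quiescence (-2.50), Fgf18, a growth factor of the resting phase (-1.84), the LIM homeobox gene Lhx2 (-1.46) and Postn (-1.25). The one higher was the WNT inhibitor Wif1 (1.06), present in 4 of 16 late germ and 1 of 39 bulge cells. Against the P23-P24 germ the list's median was 0.52 (all genes -0.45), with 5 members higher and 1 lower by 1 or more (2.73% and 22.1% of all genes). Against the matrix it was 1.21 (all genes 0.002), with 9 higher and none lower (7.46% and 5.81% of all genes).

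Nfatc1 ran from 19.7 to 244.3 TPM in bulge cells with a median of 91.7. In late germ cells it ran from 0 to 44.5 with a median of 24.6, so the ranges overlapped, with 7 late germ cells below every bulge cell and 33 bulge cells above every late germ cell. Id2 had a median of 104.4 in the bulge and 20.2 in the late germ, where single cells spread from 0 to 435 and the highest was 913hg_B3. Fgf18 was listed at 0 in all 16 late germ cells and was present in 16 of 39 bulge cells.

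Sox9 and Col17a1, also on this list, were chosen after their values were seen. Sox9, a transcription factor of follicle stem cells, was present in all cells of both groups, with medians of 80.4 in the bulge (4.71 to 204.3) and 53.6 in the late germ (10.5 to 141.6) and a difference of -0.44. It was 1.64 above the P23-P24 germ and 2.11 above the matrix. Col17a1, a hemidesmosomal collagen, had medians of 447 (169.3 to 893) and 280 (127.3 to 545), and differed by -0.87 from the bulge and by 1.49 from the P23-P24 germ. For both genes the late germ cells overlapped the bulge cells broadly.

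Of 9 hair germ genes 3 were higher in the late germ than in the bulge by 1 or more and none was lower (7.79% and 14.6% of all genes), with a median of 0.29. Foxi3, a forkhead factor of the hair placode and germ, was present in 10 of 16 late germ and 4 of 39 bulge cells (2.31). Runx1, a runt factor of germ activation, was present in 16 of 16 and 27 of 39 (1.73), and Lef1, a mediator of WNT signals, in 11 of 16 and 12 of 39 (1.37). No member differed from the P23-P24 germ by 1 or more.

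Of 10 outer root sheath genes 4 were lower by 1 or more, beside 14.6% of all genes, namely the keratin Krt6a (-3.12), Barx2 (-2.90), the chemokine Cxcl14 (-2.02) and Aqp3 (-1.07), and the keratin Krt17 was higher (1.24). Krt6a, a keratin of the inner bulge and companion layer, was present in 7 of 16 late germ and 33 of 39 bulge cells, and 1 late germ cell reached 1741 TPM. The basal keratins Krt5 and Krt14 were nearly level, with differences of 0.17 and 0.38, and all cells of both groups had them.

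Signalling genes were described by lists. Of 8 inhibitors of BMP 5 were lower in the late germ by 1 or more and none was higher, beside 14.6% and 7.79% of all genes (median -1.21, all genes -0.18). They were Grem1 (-3.07), Sostdc1 (-2.06), Fst (-1.63), Nog (-1.25) and Fstl3 (-1.18). Grem1, which encodes gremlin, was present in 5 of 16 late germ cells and 33 of 39 bulge cells. Of 8 BMP response genes 3 were lower and 1 was higher by 1 or more, beside the same shares of all genes. The lower ones were Id2, Smad9 (-1.51), a receptor-regulated SMAD, and Id3 (-1.09), and the higher one was Id1 (1.02). The ligand gene Bmp7 was higher (2.39), being present in 12 of 16 and 9 of 39 cells.

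For FGF signalling, 2 of 8 response genes were higher and none was lower, beside 7.79% and 14.6% of all genes (median 0.72). Against the P23-P24 germ 4 of the 8 were lower by 1 or more (22.1% of all genes), with a median of -0.96. Dusp6, a phosphatase that FGF induces, was present in 10 of 16 and 7 of 39 cells (2.2), and Etv4, an ETS factor, differed by 1.26. Among 8 FGF ligands and receptors Fgf18, Fgfr3 (-1.95) and Fgfr1 (-1.24) were lower than in the bulge and none was higher by 1 or more (14.6% and 7.79% of all genes). Of 12 WNT response genes Axin2, a feedback inhibitor (2.02), and Lef1 were higher (7.79% of all genes), and the list's median was 0.00. Axin2 was present in 13 of 16 late germ and 20 of 39 bulge cells, and it was 1.53 above the P23-P24 germ. The hedgehog response genes Ptch1 (0.94) and Gli1 (0.47) differed by less than 1 from the bulge, and by -1.82 and -1.98 from the P23-P24 germ.

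G2/M transcripts were low in both groups, but 9 of 18 S phase genes reached 1 TPM in 30% of the cells of either group. None of 20 G2/M genes reached 1 TPM in 30% of the cells of either group, so all lay near the floor. None differed by 1 or more from the bulge, nor was any lower than in the matrix by as much (median -0.27). The number listed at 0 was 14 in all late germ cells and 8 in all bulge cells. Mki67, the proliferation antigen, was listed at 0 in every cell of both groups, where 16 cells allow a share of up to 20.6% and 39 cells up to 9.03% by the exact interval. Its mean at P23-P24 was 18.1. Against the P23-P24 germ, 17 of the 20 were lower by 1 or more (median -1.56), as were 18 of 18 S phase genes (median -3.18), beside 22.1% of all genes and a median gene at -0.45. Against the matrix, 6 of the 18 S phase genes were lower by 1 or more and none was higher (median -0.60), beside 5.81% and 7.46% of all genes. Against the bulge, 2 of the 18 S phase genes were higher by 1 or more and none was lower, beside 7.79% and 14.6% of all genes. They were Gins2 (1.33) and Mcm2 (1.18), parts of the replicative helicase. Of the 18, 12 were lower than in the bulge by any amount, and the list's median was -0.16 (all genes -0.18). Mcm2 was present in 8 of 16 late germ and 8 of 39 bulge cells.

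Among 9 quiescence and cell cycle inhibitor genes, Txnip, an inhibitor of thioredoxin (1.91), and the forkhead factor Foxo3 (1.31) were higher in the late germ. Nfatc1 and the CDK inhibitor gene Cdkn1a (-1.02) were lower. Beside them, 7.79% of all genes were higher and 14.6% lower by 1 or more, and the list's median was -0.11 (all genes -0.18). Txnip and Foxo3 were present in all 16 late germ cells and in 35 of 39 bulge cells each. Both were also above the P23-P24 germ, by 1.23 and 1.54.

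Genes of contact with the matrix were lower in the late germ in part. Of 15 extracellular matrix genes 7 were lower by 1 or more and none was higher, beside 14.6% and 7.79% of all genes (median -0.32). Sparc, a collagen-binding protein, differed by -2.85, with medians of 56.8 in the late germ and 238.01 in the bulge, and Fn1, fibronectin, by -1.36. Of 11 basal adhesion genes 4 were lower by 1 or more, beside the same 14.6%. Npnt, which encodes the basement membrane protein nephronectin, was present in 8 of 16 late germ and 36 of 39 bulge cells (-2.85). Dst, a hemidesmosomal plakin, gave -1.16 and the integrin genes Itgb6 and Itga3 gave -1.04 and -1.03. As a log2 ratio of mean TPM, Itgb6 turned to 0.19.

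**Figure D5:**
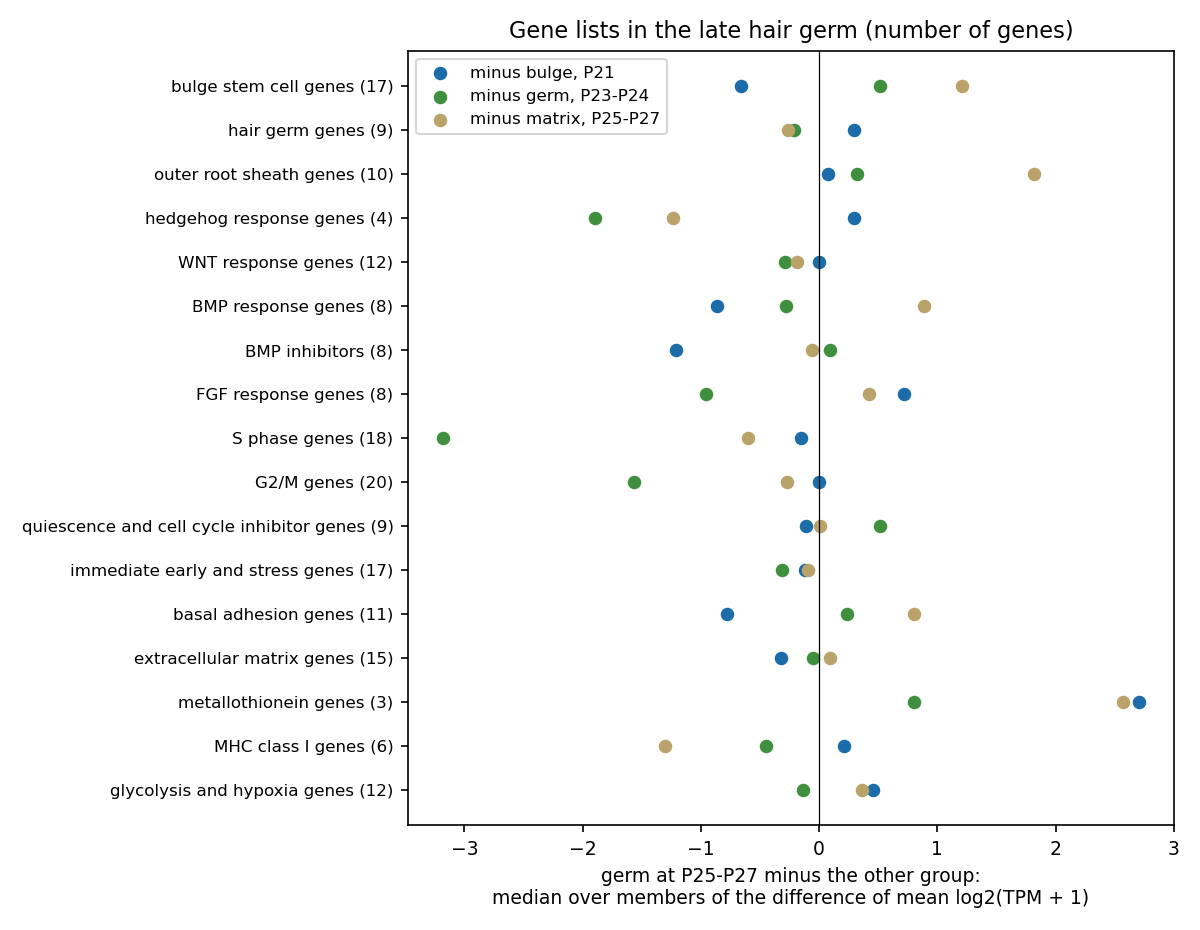
Each point is the median over the genes of 1 list of the difference of mean log2(TPM + 1), late germ minus the bulge (blue), the P23-P24 germ (green) or the matrix (tan), with the number of genes in brackets. The bulge list lies at -0.66, 0.52 and 1.21, and the S phase list at -0.16, -3.18 and -0.60.

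The whole profile did not place the late germ cells with 1 group. Each cell's log2(TPM + 1) over the 1500 most variable genes was correlated across genes with the mean profiles of 4 groups, leaving the cell itself out of its own group's mean. The highest correlation was with the matrix for 6 late germ cells, with the bulge for 4, with the P23-P24 germ for 4 and with the P21 germ for 2. Among bulge cells it was with the bulge for 36 of 39 and with the P21 germ for 3. Of 68 P21 germ cells 53 were nearest their own group and 10 the bulge, and of 68 P23-P24 germ cells 57 and 6. Matrix cells were spread more widely, with 48 nearest the P23-P24 germ, 20 the P21 germ, 19 the bulge and the rest the matrix. A mixed placement, with some cells nearest the bulge, was thus not particular to the late germ. Median coefficients of late germ cells were 0.35 with the bulge, 0.36 with the P21 germ, 0.36 with the P23-P24 germ and 0.39 with the matrix, so they differed little. Profiles were means over unequal numbers of cells, from 39 in the bulge to the much larger matrix group, and the part of that number in the choice was not tested. With 500 genes 5 cells were nearest the bulge, and with 3000 genes 3 were.

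Markers of other cell types were looked for in the same cells. All 4 endothelial and all 4 Merkel cell markers were listed at 0 in every late germ cell, as were 4 of 5 immune, 5 of 7 fibroblast and 6 of 8 melanocyte markers. The summed TPM of the fibroblast list was at most 27.9 in a late germ cell and 70.5 in a bulge cell. Of the melanocyte list Mitf, a transcription factor, was lower in the late germ (-2.63), and its median in bulge cells was 30.1. Of the 16 matrix, inner root sheath and shaft genes 8 were listed at 0 in all late germ cells, and Dlx3, a homeobox factor of the shaft, was lower than in the bulge (-2.12).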

How the data were processed

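The deposited values are TPM per gene and cell, which the authors made with Bowtie2 2.2.9 and RSEM 1.2.30 on mm10, per the submitters' processing notes. Columns were matched to cells by title. Ages and sort came from the labels. From the TPM, the mean log2(TPM + 1) of each group was computed over cells in which 2000 genes or more reached 1 TPM (pandas 2.3.3, numpy 2.4.6). Genes had to reach 1 TPM in 30% of cells in either group. Spike-in rows (92), rows of ribosomal RNA (358) and mitochondrial rows (37) were set aside as technical, and a difference of 1 was the threshold for counting. TPM holds no depth, and each group is 1 sample, so no test was made. "Present" means a TPM of 1 or more, and intervals are exact binomial (Clopper-Pearson) at 95% (scipy 1.17.1). Gene positions are those of GENCODE M21 (GRCm38, that is mm10). The computation of differences was tested with known folds planted in the real cells, dealt out again at random to groups of the same sizes. The other steps were not tested in this way.

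Named genes are the 12 with the largest difference in each direction (present in 50% of the higher group's cells, with the same sign in plate 913hg alone and as a ratio of means, without predicted models, pseudogenes and sort genes), up to 4 members of each list, the 4 markers, 12 shared genes, the 10 bulge genes lowest in the late germ and the 10 with the largest gap to the other groups. Some are not reported here, and a few level list members were added for contrast after their values were seen. The members and the 30 lists were chosen with earlier results of these data known, and 3 lists were added later. Alternatives were the pseudocount, the filters, the scaling, the summary, the plate, the reference group and the list size. The cells that stand apart were left out as alternatives added after the data were seen.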

Additional observations from a re-analysis of the deposited data

How the results depend on the processing

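The genes higher in the late germ were 17.1% of those measured with a pseudocount of 0.1, 1.2% with 10 and 14.7% after rescaling without technical rows, beside 7.79% as reported. Those higher in the bulge were 28% and 2.02% with the same pseudocounts, beside 14.6%. The median of the P21 bulge programme over the P23-P24 germ was 0.79 with a pseudocount of 10, 0.42 as a log2 ratio of mean TPM and 0.72 with 100 genes, and that of the germ programme was -1.91 with a pseudocount of 0.1 and -1.36 after rescaling. Shared genes numbered 43 and 3 with pseudocounts of 0.1 and 10, 36 after rescaling, 1 as a ratio of means and 33 after centring. The cause was not tested. The medians of the bulge and hair germ lists kept their sign under all settings run on them, as did the bulge programme's. Of the values of single genes under the alternatives, 92.4% stayed on their side of the threshold, 4.51% dropped below it, 3.02% passed it and, among those past the threshold, 1 turned, Itgb6 at 0.19 as a ratio of means. Signs of genes under the threshold are not counted here. Part of the unchanged share was fixed in advance. Dropping the filter on low values cannot change the difference of a gene or the median of a list. That alternative therefore adds only unchanged values. The genes named for the largest difference in each direction had to keep their sign in plate 913hg alone and as a ratio of means. They could therefore not turn under those alternatives. Leaving out the 2 cells of plate 914hg gave 760 genes higher in the late germ and 1277 higher in the bulge. No paired analysis was possible because each group is 1 sample and replicate numbers only name cells. Read depth is unknown, so a gene listed at 0 may have been missed.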

Other observations

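Some genes had their highest mean in the late germ among all 5 groups of the table. Cyp4b1, a cytochrome P450 enzyme, was present in all 16 late germ cells at 23.6 to 212.3 TPM (median 87.1), and differed by 1.95 from the bulge and 2.41 from the P23-P24 germ. Ahcyl2, related to S-adenosylhomocysteine hydrolase, was likewise present in all 16 (1.90 and 2.28). Ces2g, a carboxylesterase, was above the bulge median in 16 of 16 cells (2.54 and 1.92). Hpgd, which degrades prostaglandins (2.16 and 1.57), Sulf2, an extracellular heparan sulfatase (2.92 and 1.55), and Ryk, a WNT receptor (1.56 and 1.48), followed the same order. These genes were chosen for this gap, which is therefore a description.

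3 lists were added after the values had been seen. Of 12 genes known to rise with glucocorticoid, 6 were higher in the late germ than in the bulge by 1 or more and 3 were lower, beside 7.79% and 14.6% of all genes. The list was added because Fkbp5 led the genes above, and Fkbp5 is 1 of the 6. Beside it, Tsc22d3, a leucine zipper protein, differed by 3.02, Ddit4 by 2.39, Errfi1 by 2.33, Zbtb16, a zinc finger repressor, by 2.25 and Klf9 by 2.02, while Dusp1 gave -2.04, Sgk1 -1.82 and Cebpd -1.66. Zbtb16 was present in all 16 late germ cells, each above the bulge median of 3.81. The summed TPM of the list overlapped widely, from 238.2 to 1014 in late germ and from 43.3 to 1152 in bulge cells. With the same shares of all genes as background, of 5 serine synthesis genes 4 were higher by 1 or more, Psat1, Shmt2 (2.26), Phgdh (1.93) and Psph (1.61), but none was above the P23-P24 germ by as much. Of 16 sterol synthesis genes 5 were higher and none lower, led by Fdps (3.04) and Dhcr7 (2.58). Against the P23-P24 germ 7 of them were lower by 1 or more, beside 22.1% of all genes.

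Immediate early and stress genes lay on both sides. Of 17, beside 7.79% of all genes higher and 14.6% lower, Junb (1.86) and Fos (1.58) were higher in the late germ, and Klf4 (-2.18), Dusp1, Hspa1a (-1.64) and Hspa1b (-1.59) were lower. Both metallothionein genes that passed the filter were higher: Mt1 had a median of 664 TPM in late germ cells (84.7 to 3038) and of 128.99 in bulge cells (0 to 2698), a difference of 2.71. The R-spondin receptor gene Lgr6 was present in 15 of 16 late germ and 26 of 39 bulge cells (2.51). Of 12 glycolysis and hypoxia genes, the glycolytic enzymes Eno1 (2.04) and Aldoa (1.39) were higher and Ndrg1 was lower (-1.59), and of 6 MHC class I genes none differed from the bulge by 1 or more.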
